A study of Mus musculus with 9 samples.

Results

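The genes described here are 10 genes that give spinal motor neurons their cholinergic and motor identity, namely Chat, Slc18a3, Slc5a7, Ache, Prph, Isl1, Isl2, Mnx1, Lhx3 and Lhx4. They were chosen by gene symbol, and each matched 1 row of a table of 55401 genes. The study profiled labelled motoneurons of the mouse spinal cord with Smart-seq2, which reads whole transcripts of a few cells, and its design asks how the transcriptome changes after spinal cord injury and after electrical stimulation that follows the injury. The SBES group had a spinal cord injury and synergistic bidirectional electrical stimulation, at 10 Hz in library 1, 15 Hz in library 2 and 20 Hz in library 3. The untrained group had the injury without stimulation, and the sham group is labelled as having no treatment. All 3 groups are labelled wild type, with 3 mice and 3 libraries each, and tissue was taken 4 weeks after injury.

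Per the labels, the neurons carried a fluorescent label called TRDA and were aspirated with glass electrodes from fresh spinal cord slices. Libraries are not tied to single mice and the number of neurons in a library is not given, so p-values measure how far these libraries differ from each other, which may partly be technical. Each stimulation frequency has 1 library, and a difference between SBES libraries cannot be told apart from a difference in frequency. The table columns of the 3 untrained libraries and of SBES library 1 were matched to their samples by elimination, and their values rest on that match.

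Motor neurons signal to muscle with acetylcholine. Chat makes acetylcholine from choline and acetyl-CoA, the Slc18a3 product VAChT loads it into synaptic vesicles, the Slc5a7 product CHT1 takes choline back into the terminal, and Ache breaks acetylcholine down in the synaptic cleft. Prph encodes peripherin, an intermediate filament of neurons whose axons leave the central nervous system. Isl1, Isl2, Mnx1, Lhx3 and Lhx4 encode homeodomain transcription factors that specify motor neurons in the embryo, and Isl1 with Lhx3 drives the motor neuron programme there.

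Chat and Slc18a3 form a shared locus on chromosome 14. In the deposited coordinates, which are those of the mm10 assembly, Chat spans chr14:32408203-32465989 on the minus strand with 4703 exonic bases. Slc18a3, 1 exon of 2413 bases, lies at chr14:32462438-32464850 on the same strand, inside an intron of Chat. The exon of Slc18a3 shares 0 bases with the exons of Chat and is 956 bases from the nearest Chat exon upstream and 395 from the nearest downstream. Reads of unspliced Chat RNA over that exon cannot be told apart from reads of Slc18a3. Sequences upstream of the starts of Chat, Slc18a3 and Prph are printed for the host and nested pair and the most correlated pair below. They are from RefSeq on GRCm38.p6, run 5′ to 3′ on the strand of the gene, and have in capitals each TAAT or its reverse complement ATTA, the core that homeodomain proteins bind. They cover 170 bases before Chat at chr14:32465990-32466159 (minus strand), 250 bases before Slc18a3 at chr14:32464851-32465100 (minus strand) and 250 bases before Prph at chr15:99054924-99055173 (plus strand).
Chat: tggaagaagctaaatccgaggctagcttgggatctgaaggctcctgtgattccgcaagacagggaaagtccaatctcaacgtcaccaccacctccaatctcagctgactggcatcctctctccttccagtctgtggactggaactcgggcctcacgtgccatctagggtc
Slc18a3: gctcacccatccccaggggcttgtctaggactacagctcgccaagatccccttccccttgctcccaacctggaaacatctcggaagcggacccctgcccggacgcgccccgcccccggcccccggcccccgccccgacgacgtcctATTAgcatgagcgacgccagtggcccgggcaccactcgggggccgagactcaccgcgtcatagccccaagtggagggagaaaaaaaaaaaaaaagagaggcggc
Prph: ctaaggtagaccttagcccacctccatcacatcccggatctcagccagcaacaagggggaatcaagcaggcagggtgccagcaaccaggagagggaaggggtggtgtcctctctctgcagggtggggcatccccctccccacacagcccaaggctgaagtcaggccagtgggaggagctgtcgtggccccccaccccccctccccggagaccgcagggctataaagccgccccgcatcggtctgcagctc
The core was found 1 time before Slc18a3 and 0 times before Chat and before Prph. Among the windows of 250 bases before gene starts in the whole RefSeq table, 54.9% of 32851 held it on either strand. All 10 genes matched that table, with 11 windows in all. The core stood in 4 of those 11 windows, with 2 matches before Isl1 and 1 each before Mnx1, Slc18a3 and 1 of the 2 starts of Lhx3.

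Total counts ran from 11821145 to 17675948 per library, and 21791 to 23929 genes had at least 1 count. All 10 genes were detected in every library and passed the filter on low counts, as did 15893 genes in all. Library 1 of each group stood apart, with a correlation of log values of 0.946 to 0.958 with the other libraries of its group, against 0.976 to 0.984 between libraries 2 and 3. RNA of other cells was present in every library. Levels are in CPM, counts relative to the TMM-scaled library total over the genes that passed the filter. The summed level of 20 oligodendrocyte and myelin markers ran from 62010 to 89824 CPM in SBES, from 43972 to 66787 in untrained and from 55526 to 124440 in sham libraries. The summed level of 22 pan-neuronal markers ran from 10290 to 16936, from 8404 to 14351 and from 10824 to 19640 CPM in SBES, untrained and sham libraries. Markers of inhibitory neurons (Gad1, 23.3 to 65.3 CPM over the 9 libraries) and of glutamatergic neurons (Slc17a6, 35.7 to 73.3 CPM) were also present, while the sensory neuron channel gene Scn10a was at 0 counts in all 9. Untrained library 1 had the highest summed level of 12 inhibitory neuron markers, 875 CPM in a range from 268 over the 9 libraries. It was also highest for 10 glutamatergic neuron markers, at 521 CPM in a range from 59.6. For 20 mature motor neuron markers it was lowest, at 3408 CPM in a range up to 9283. The part of other cells in the levels of the 10 genes was not tested. In such mixed samples fewer motor neurons and less RNA per motor neuron cannot be told apart.

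None of the 10 genes passed the test in any of the 4 comparisons. By edgeR's quasi-likelihood test with Benjamini-Hochberg adjustment over all 15893 genes, 0 of 10 passed for SBES against untrained, where the background was 0 genes, or 0%. The count was also 0 of 10 for untrained against sham, with a background of 0%. For SBES against sham 0 of 10 passed beside 55 genes, or 0.346% of those tested, and for all 6 injured libraries against sham 0 of 10 passed beside 15 genes, or 0.0944%. At an unadjusted p under 0.05 the 4 comparisons had 854, 707, 1480 and 1190 genes, and 0 of the 10 in each. DESeq2 called 29, 14, 283 and 159 genes, again with 0 of the 10. The comparisons share libraries: the 3 against sham use the same sham libraries, and the untrained libraries enter 3 of the 4.

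**Figure D1:**
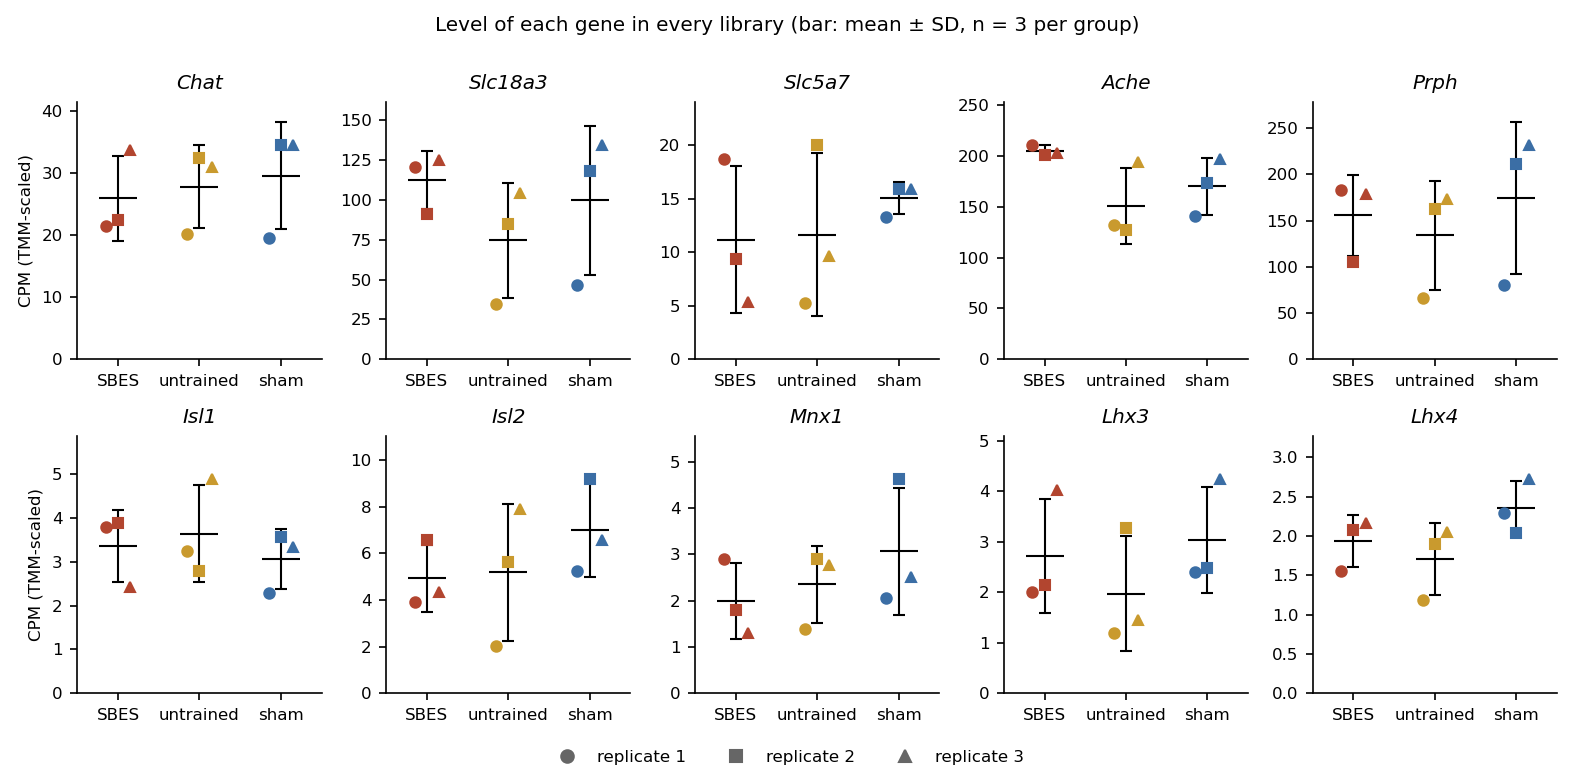
Level of each gene in CPM (vertical axes, starting at 0) in the 3 SBES, 3 untrained and 3 sham libraries, with marker shape for the replicate number and bars for the mean ± SD. On this scale the 3 SBES libraries lie above all others for Ache, and the libraries of the groups overlap for the other 9 genes in all comparisons.

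Chat, the acetylcholine-synthesising enzyme gene, differed more within groups than between them. Chat had 21.5, 22.5 and 33.8 CPM in SBES libraries 1 to 3, 20.2, 32.3 and 30.9 CPM in untrained libraries 1 to 3, and 19.6, 34.6 and 34.5 CPM in sham libraries 1 to 3. Library 1 was the lowest of its group in all 3 groups, and these are the 3 lowest of the 9. The log2 fold change was -0.10 (SE 0.29) for SBES against untrained, -0.09 (SE 0.29) for untrained against sham and -0.19 (SE 0.29) for SBES against sham. The 95% interval around the injured against sham value of -0.14 ran from -0.64 to 0.35.

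Slc18a3, the vesicular acetylcholine transporter gene, had 121, 91.4 and 125 CPM in SBES libraries 1 to 3, 34.6, 85.0 and 105 CPM in untrained libraries 1 to 3, and 46.7, 118 and 135 CPM in sham libraries 1 to 3. Untrained library 1 and sham library 1 were far below the rest, SBES library 1 was not, and the groups overlapped. The log2 fold change for SBES against untrained was 0.59 (SE 0.42, adjusted p = 0.993 by edgeR), the largest of the 10 genes in size in that comparison. For untrained against sham it was -0.42 (SE 0.42, adjusted p = 1.00 by edgeR).

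Slc5a7, the choline transporter gene, had 18.7, 9.36 and 5.38 CPM in SBES libraries 1 to 3, 5.22, 20.0 and 9.65 CPM in untrained libraries 1 to 3, and 13.3, 15.9 and 15.9 CPM in sham libraries 1 to 3. On this scale the sham libraries lay inside the range of both other groups. Its coefficient of variation was 61.4% in SBES, 65.4% in untrained and 10.0% in sham libraries on the CPM scale, while FPKM were 1.77 ± 0.78 in SBES, 2.32 ± 1.61 in untrained and 2.62 ± 0.81 in sham libraries (SD, n = 3 each). The log2 fold change was -0.45 (SE 0.48) for SBES against sham and -0.37 (SE 0.48) for untrained against sham, with adjusted p values by edgeR of 0.853 and 1.00.

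Ache, the acetylcholinesterase gene, was the only one of the 10 whose groups did not overlap in a comparison on the CPM scale. Ache had 211, 201 and 203 CPM in SBES libraries 1 to 3, 132, 127 and 194 CPM in untrained libraries 1 to 3, and 141, 173 and 197 CPM in sham libraries 1 to 3. All 3 SBES libraries were above all 6 others, with a coefficient of variation of 2.66% in SBES, 24.6% in untrained and 16.5% in sham. The log2 fold change was 0.44 (SE 0.23, adjusted p = 0.954 by edgeR) for SBES against untrained and 0.27 (SE 0.23, adjusted p = 0.799) for SBES against sham. On the deposited FPKM, which carry no TMM factor, Ache was at 34.7, 47.8 and 44.7 in SBES libraries 1 to 3, 30.0, 31.8 and 46.2 in untrained libraries 1 to 3, and 22.1, 43.0 and 44.2 in sham libraries 1 to 3, and the groups overlapped. With limma on log2(FPKM + 1) the SBES against untrained value was 0.24. On the CPM scale 1 of the 10 genes had libraries without overlap for SBES against untrained, where 10.4% of all genes tested did, and 1 of 10 for SBES against sham, where 13.8% did. For untrained against sham the count was 0 of 10 with a background of 9.76%, and for injured against sham 0 of 10 with 3.63%. Ache shares 98 exonic bases, 2.12% of its exonic length, with Gm42456, a noncoding gene on the opposite strand, and the strand setting of the counting is not given in the sources used here.

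Prph, the peripherin gene, had 183, 105 and 179 CPM in SBES libraries 1 to 3, 65.8, 163 and 173 CPM in untrained libraries 1 to 3, and 80.0, 211 and 232 CPM in sham libraries 1 to 3. As for Slc18a3, untrained library 1 and sham library 1 were the lowest of the 9. The log2 fold change was 0.22 (SE 0.43) for SBES against untrained, -0.38 (SE 0.43) for untrained against sham and -0.17 (SE 0.43) for SBES against sham, and the smallest adjusted p of these by edgeR was 0.954. The first of these values was -0.26 when library 1 of every group was left out.

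The 5 transcription factor genes were low, with 14 to 145 counts each in a library. Isl1, a LIM homeodomain factor gene of motor neurons and other neurons, had 3.79, 3.88 and 2.41 CPM in SBES libraries 1 to 3, 3.24, 2.78 and 4.89 CPM in untrained libraries 1 to 3, and 2.29, 3.55 and 3.33 CPM in sham libraries 1 to 3. Isl2, its paralog, had 3.90, 6.59 and 4.33 CPM in SBES libraries 1 to 3, 2.05, 5.62 and 7.90 CPM in untrained libraries 1 to 3, and 5.23, 9.20 and 6.60 CPM in sham libraries 1 to 3. The groups overlapped for both. Their log2 fold changes for injured against sham were 0.18 (SE 0.31) for Isl1 and -0.47 (SE 0.37) for Isl2.

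Mnx1, also called Hb9, had 2.90, 1.80 and 1.30 CPM in SBES libraries 1 to 3, 1.39, 2.89 and 2.77 CPM in untrained libraries 1 to 3, and 2.07, 4.63 and 2.51 CPM in sham libraries 1 to 3. Its highest value was in sham library 2 and its lowest in SBES library 3. The log2 fold change for SBES against sham, -0.66 (SE 0.46, adjusted p = 0.738 by edgeR), was the largest in size of the 10 genes in that comparison. Lhx3, which in the embryo marks the medial motor column, had 2.01, 2.15 and 4.02 CPM in SBES libraries 1 to 3, 1.19, 3.28 and 1.45 CPM in untrained libraries 1 to 3, and 2.40, 2.48 and 4.25 CPM in sham libraries 1 to 3. The groups overlapped, and its log2 fold change for untrained against sham, -0.63 (SE 0.47, adjusted p = 1.00 by edgeR), was the largest in size there. Of its exonic length, 6.17% (188 bases) is shared with the antisense gene Gm27196. Lhx4, the paralog of Lhx3, had 1.56, 2.08 and 2.16 CPM in SBES libraries 1 to 3, 1.19, 1.89 and 2.05 CPM in untrained libraries 1 to 3, and 2.29, 2.03 and 2.73 CPM in sham libraries 1 to 3. The sham libraries were in the upper part of the range, with an overlap, and the log2 fold change for untrained against sham was -0.45 (SE 0.37).

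Counted over the 10 genes, log2 fold changes were negative in 9 for untrained against sham, with a median of -0.39 beside -0.01 over all genes tested. Isl1 was the exception at 0.24 (SE 0.35). With limma on the deposited FPKM 7 of the 10 were negative. Without untrained library 1 the median was -0.03, with 7 negative, and without sham library 2 it was -0.21, also with 7 negative. Without sham library 3 it was -0.22, with 8 negative. Other omissions moved it away from 0. The median was -0.53 without untrained library 2 and -0.49 without sham library 1, with 9 negative each. Without untrained library 3 it was -0.48, with 10 negative. For SBES against untrained 5 were positive and 5 negative, with a median of 0.06 beside 0.02 over all genes. Without untrained library 1 that median was -0.18 with 7 negative, without untrained library 2 it was 0.30 and without untrained library 3 it was 0.31, each with 7 positive, and with limma on log2(FPKM + 1) it was -0.06. For SBES against sham 7 were negative, with a median of -0.18 beside -0.00 over all genes. Without sham library 3 the median was 0.01 with 5 negative, and without sham library 1 it was -0.33 with 9 negative. For injured against sham 8 were negative, with a median of -0.32 beside -0.01 over all genes. Without sham library 3 the median was -0.04, and without sham library 1 it was -0.45 with 9 negative. Of the 40 fold changes, 17 changed sign under at least 1 alternative setting, and none passed the adjusted threshold under any.

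**Figure D2:**
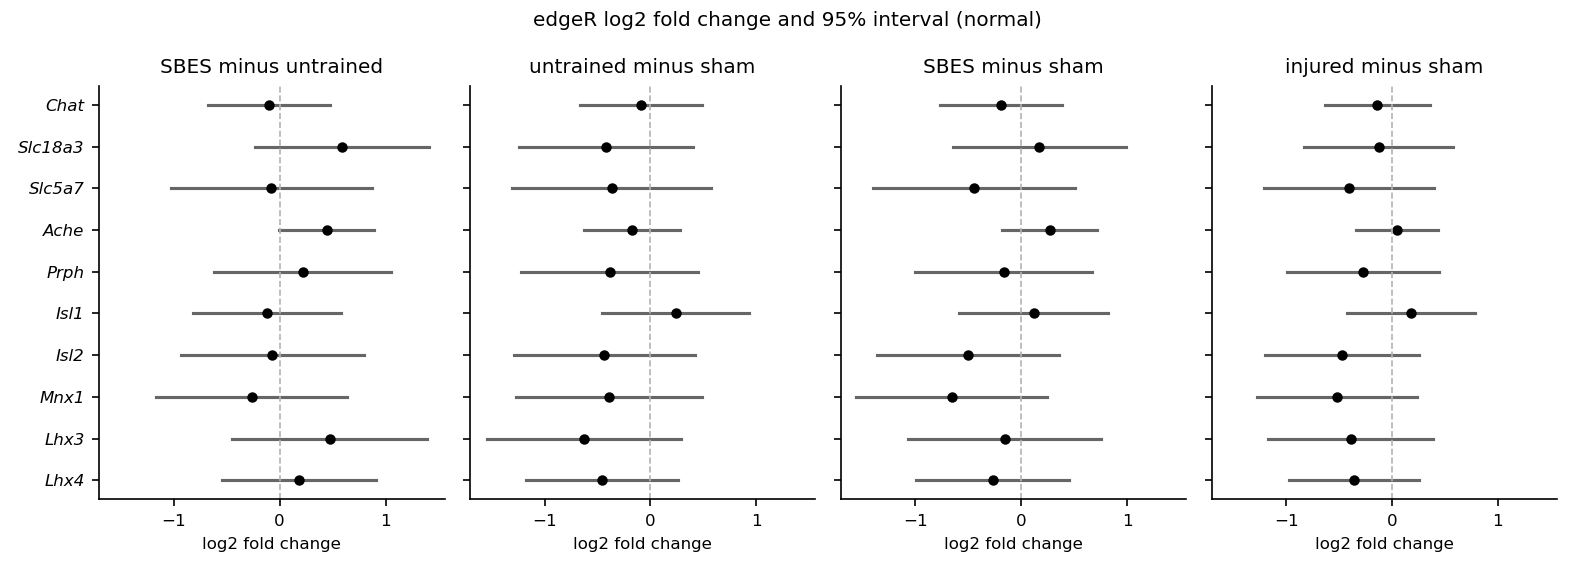
Log2 fold changes of the 10 genes (horizontal axes) in the 4 comparisons by edgeR, with lines for the 95% interval and a dashed line at no change. All lines in the 4 panels cross the dashed line, and that of Ache for SBES minus untrained does so by the least, with a lower end of -0.01.

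Levels of the 10 genes can be set against each other on the FPKM scale, which is per kilobase of exonic length. The order by mean FPKM over the 9 libraries was Prph (79.3), Slc18a3 (40.5), Ache (38.3), Chat (6.09), Isl2 (2.70), Slc5a7 (2.24), Mnx1 (1.13), Isl1 (0.865), Lhx3 (0.862) and Lhx4 (0.352). Neighbours were compared within each library by an exact two-sided sign-flip permutation test over 9 libraries, with adjustment over the 9 pairs. The order, and so the pairs, came from these same 9 libraries. The p values therefore describe how steady a difference was across them and are no separate test of the order. Prph exceeded Slc18a3, Ache exceeded Chat, Chat exceeded Isl2, Slc5a7 exceeded Mnx1 and Lhx3 exceeded Lhx4 in 9 of 9 libraries each, with an exact p = 0.0039 (adjusted p = 0.00703), the smallest that 9 libraries can give. The mean log2 ratio of Ache to Chat was 2.70 ± 0.40 and that of Prph to Slc18a3 was 0.97 ± 0.23 (SD over 9 libraries). The other neighbours did not differ beyond their spread: Slc18a3 and Ache (adjusted exact p = 0.844), Isl2 and Slc5a7 (0.347), Mnx1 and Isl1 (0.193), and Isl1 and Lhx3 (0.844). So Slc18a3, a gene inside an intron of Chat, was above its host per kilobase in all 9 libraries, from 3.35-fold in untrained library 1 to 10.97-fold in SBES library 1. Prph stood first and Lhx4 last in every library.

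**Figure D3:**
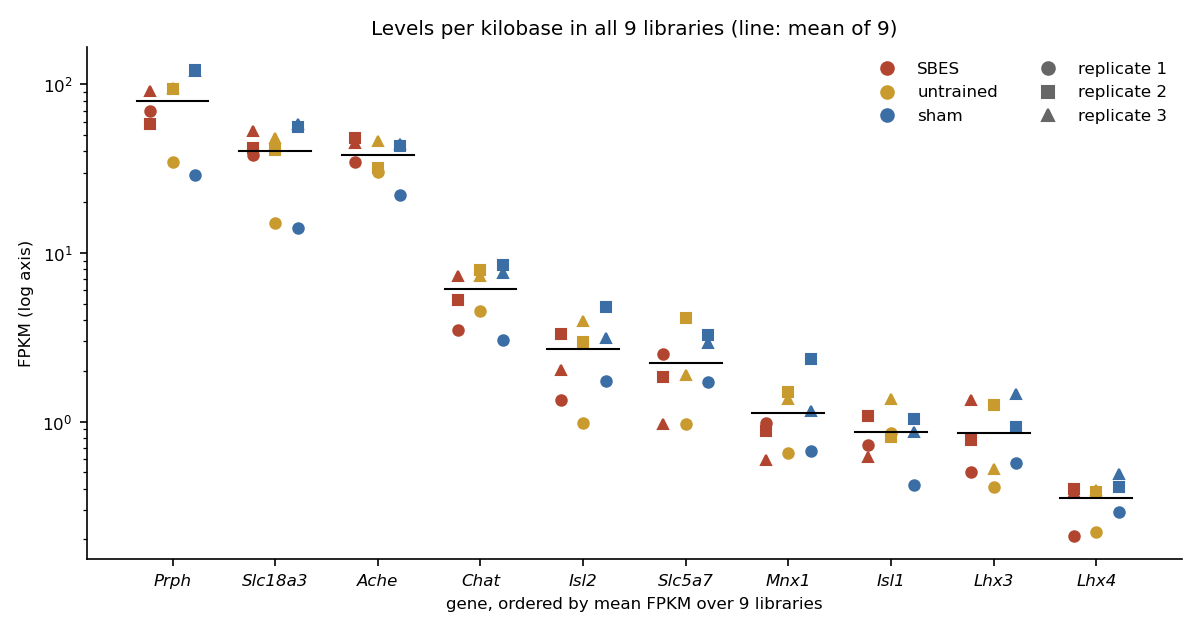
FPKM of each gene (vertical log axis) in the 9 libraries, with genes ordered from left to right by their mean, colour for the group, marker shape for the replicate number and a line at the mean. Prph, Slc18a3 and Ache lie above the other 7 genes, with group colours mixed within each gene.

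Ratios between pairs of the 10 genes were taken within each library, so that they do not depend on its scaling. The log2 ratio of Slc18a3 to Chat was 3.46, 2.99 and 2.85 in SBES libraries 1 to 3, 1.74, 2.36 and 2.72 in untrained libraries 1 to 3, and 2.22, 2.74 and 2.93 in sham libraries 1 to 3. SBES libraries lay above the untrained ones without overlap, and the sham libraries overlapped with both. The means were 3.10 ± 0.32 in SBES and 2.27 ± 0.49 in untrained libraries (SD, n = 3 each), a difference of 0.82 with a two-sided exact permutation p = 0.1, the smallest that 3 libraries against 3 can give. The log2 ratio of Isl2 to Isl1 was 0.89, 1.61 and 1.70 in SBES libraries 1 to 3, 0.19, 1.87 and 1.55 in untrained libraries 1 to 3, and 2.04, 2.22 and 1.84 in sham libraries 1 to 3. SBES libraries lay below the sham ones without overlap, with means of 1.40 ± 0.44 and 2.04 ± 0.19 and an exact permutation p = 0.1. Over the 6 injured libraries against sham the difference was -0.74, with an exact permutation p = 0.0952 and an overlap through untrained library 2. The ratio of Mnx1 to Isl1 differed by -0.67 for injured against sham, also with an exact permutation p = 0.0952. In all, 32 such tests were made on 8 ratios, of which the 24 of 3 libraries against 3 could not go below 0.1. None passed adjustment, the smallest adjusted exact p being 0.784. With so few libraries hardly any outcome could have passed it, so no conclusion is drawn from that. Set against the summed pan-neuronal markers of the same library, the 10 genes had exact p values of at least 0.369 in the 10 tests of injured against sham. The other 30 tests, 3 libraries against 3, could not go below 0.1.

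**Figure D4:**
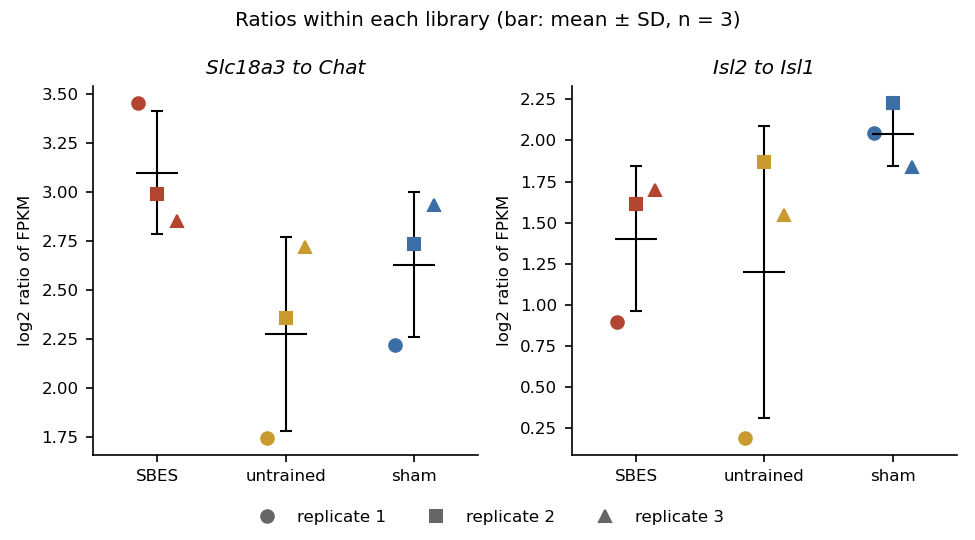
Log2 ratio of FPKM within each library for Slc18a3 to Chat and for Isl2 to Isl1 in SBES, untrained and sham libraries, with marker shape for the replicate number and bars for the mean ± SD (n = 3). SBES libraries lie above the untrained ones at left and below the sham ones at right.

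The genes with a mean of at least 5 CPM, which are the cholinergic genes, Prph and Isl2, were compared in pairs across the 9 libraries on log2 CPM. Slc18a3 and Prph were the most correlated pair, with Pearson r = 0.94 (exact permutation p = 0.000446, adjusted over 15 pairs 0.0067) and Spearman rho = 0.92 (exact permutation p = 0.00131, adjusted 0.0197). Without untrained library 1 and sham library 1, the farthest from the median of Slc18a3, r was 0.74, and it was also 0.74 over the 6 libraries with replicate numbers 2 and 3. Chat and Prph had r = 0.82 (exact permutation p = 0.00609, adjusted 0.0457) and rho = 0.78 (exact permutation p = 0.0172, adjusted 0.129), with r = 0.63 without the same 2 libraries and 0.94 over replicates 2 and 3. Chat and Slc18a3, the host and the nested gene, had r = 0.71 (exact permutation p = 0.0194, adjusted 0.0726) and rho = 0.68 (exact permutation p = 0.0503, adjusted 0.189). Without the same 2 libraries that r was 0.26, and over replicates 2 and 3 it was 0.60. Slc5a7 stood apart, with r between -0.03 and 0.50 with the other 5 genes. The points share library depth and the makeup of the sample.

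**Figure D5:**
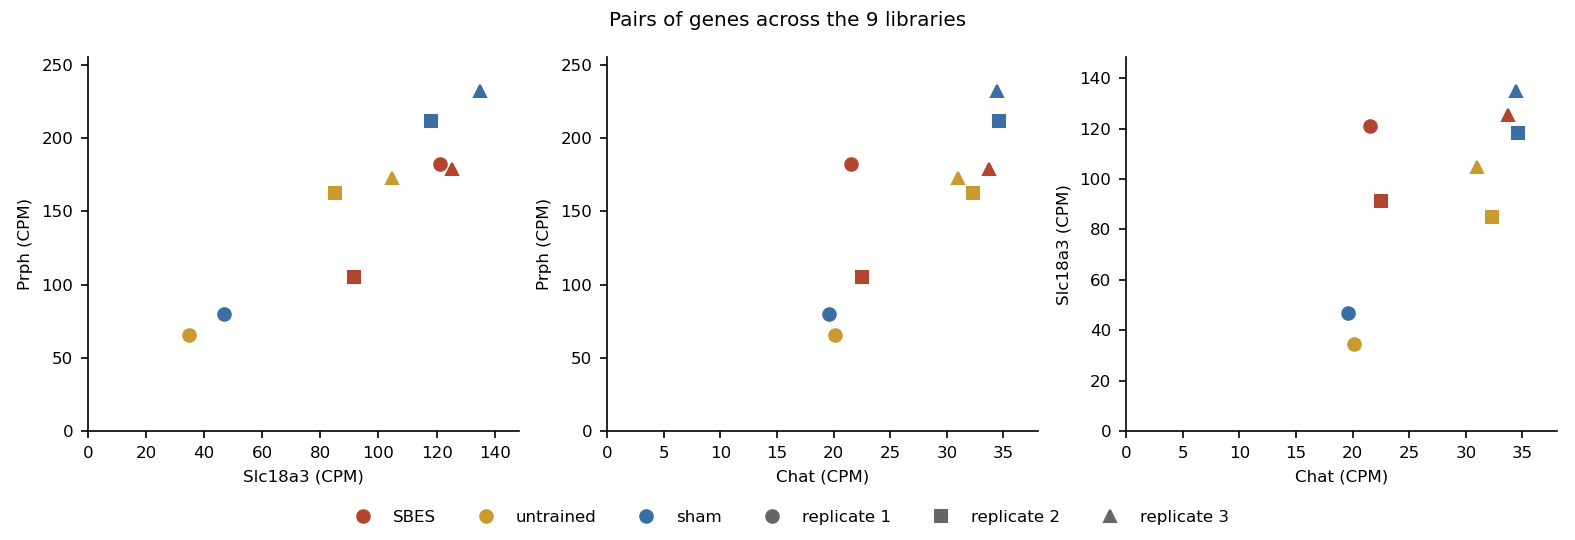
CPM of 3 pairs of genes in the 9 libraries, one point per library, with colour for the group and marker shape for the replicate number. The points for Slc18a3 and Prph rise together (r = 0.94 on log2 values), and untrained library 1 and sham library 1 form the low end in each panel.

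Among 7702 genes with a mean of at least 10 CPM, those whose log2 CPM followed a gene most closely over the 9 libraries were found by Pearson r, as a description. For Slc18a3 they were Endod1 (r = 0.97), Cd38 (0.95) and Rnf10 (0.95), and Prph ranked 7. For Prph they were Serpinb6a (0.95), Aldh7a1 (0.95) and Kif3c (0.94), and Slc18a3 ranked 5. For Chat they were Gss, Akr1b3 and Wbp1 (0.97 each), with Prph at rank 379 and Slc18a3 at rank 1016. For Slc5a7 they were Scrn3 (0.95), Dhx15 (0.93) and Armcx2 (0.91), and Prph ranked 817.

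Other genes of the cholinergic pathway had 0 called in each of the 4 comparisons. These were 15 tested genes of choline and acetyl-CoA supply, 3 of cholinesterase anchoring and the second cholinesterase, 6 of 16 nicotinic receptor subunits and 2 of 5 muscarinic receptors. The supply list had a median log2 fold change of -0.02 for injured against sham, beside -0.01 over all genes. Its 2 genes of smallest p in that comparison encode acetyl-CoA synthetases, Acss2 at -0.63 (SE 0.28, adjusted p = 0.642 by edgeR) and Acss1 at -0.62 (SE 0.28, adjusted p = 0.66). Acss1 was at -0.98 (SE 0.34, adjusted p = 0.341 by edgeR) for SBES against sham. Slc25a1, the mitochondrial citrate carrier gene, was at -0.70 (SE 0.35) there. For SBES against untrained the 2 of smallest p were Acss1 (-0.72, SE 0.34) and the pyruvate dehydrogenase gene Pdha1 (-0.30, SE 0.22), and for untrained against sham Slc44a5 (1.06, SE 0.55), of the choline transporter-like family, and Acss2 (-0.61, SE 0.33).

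Prima1, which anchors acetylcholinesterase to neuronal membranes, was at 0.28 (SE 0.29) for SBES against untrained and -0.38 (SE 0.29) for untrained against sham on the log2 scale. Colq, which anchors it at the neuromuscular junction, was at -0.38 (SE 0.49) for SBES against sham, and Bche, the second cholinesterase gene, at -0.64 (SE 0.59) there. Among nicotinic subunits, Chrna2 was at -1.14 (SE 0.55, adjusted p = 0.685 by edgeR) for injured against sham and Chrna7 at -0.47 (SE 0.37). Chrnb2 was at 0.49 (SE 0.31) and Chrnb1 at 0.60 (SE 0.54) for SBES against untrained. Chrnd, a subunit of the muscle receptor, had 0 counts in all 9 libraries. The muscarinic receptor gene Chrm2 was at 0.10 (SE 0.21) and Chrm3 at -0.01 (SE 0.76) for injured against sham.

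A list of neuromuscular junction organisers and synaptic vesicle or release genes had 0 of 10 called in each comparison. Its genes were Agrn, Nrg1, Nrg2, Slit2, Vegfa, Sv2a, Sv2b, Sv2c, Snap25 and Syt2. Snap25 is also among the pan-neuronal markers, so the list is not particular to motor neurons. Vegfa was at 1.12 (SE 0.42, adjusted p = 1.00 by edgeR) for untrained against sham and at -0.96 (SE 0.42, adjusted p = 0.915) for SBES against untrained, comparisons that share the untrained libraries. Nrg2, a neuregulin gene, was at 0.78 (SE 0.36) for SBES against untrained. The synaptic vesicle genes Sv2a and Syt2 were at 0.39 (SE 0.21) and 0.46 (SE 0.26) for SBES against sham. Of 21 other transcription regulators of motor neurons 16 were tested and 0 called in each comparison. Ldb1, the cofactor that LIM homeodomain proteins bind, was at 1.72 (SE 0.63, adjusted p = 0.381 by edgeR) for SBES against sham and 1.47 (SE 0.57, adjusted p = 0.558) for injured against sham. Its median was 14.2 CPM over the 9 libraries beside a maximum of 72.9 CPM. Foxp1, of limb-innervating motor neurons, was at 0.70 (SE 0.31) for SBES against sham. Nkx6-1, a progenitor factor gene, was at 1.11 (SE 0.41) and Ebf2 at -2.25 (SE 0.99) for SBES against untrained. The smallest adjusted p by edgeR over the 16 genes in that comparison was 0.914. Nkx6-1 was low, at 0.66 to 3.23 CPM with at most 45 counts in a library. Ebf2 had a median of 1.27 CPM over the 9 libraries beside a maximum of 9.92 CPM. Hopx was at -0.73 (SE 0.35) for untrained against sham.

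Of 20 mature motor neuron markers tested, 1 was called for SBES against sham and 1 for injured against sham, Calca in both, and 0 in the other comparisons. Calca, which encodes the peptide CGRP, averaged 59.3 ± 21.5 CPM in SBES and 345 ± 177 CPM in sham libraries (SD, n = 3 each), a log2 fold change of -2.54 (SE 0.41, adjusted p = 0.0287 by edgeR). Without SBES library 3 its adjusted p by edgeR was 0.124, without sham library 2 it was 0.0731 and without sham library 3 it was 0.166. For injured against sham Calca was at -2.47 (SE 0.32, adjusted p = 0.022 by edgeR), with 0.0625 without sham library 2 and 0.149 without sham library 3. With limma on log2(FPKM + 1) Calca had an adjusted p of 0.057 for SBES against sham and 0.0765 for injured against sham. Uts2b, a urotensin peptide gene, was at -3.97 (SE 0.82, adjusted p = 0.0677 by edgeR) for SBES against sham. Its level ran from 0.446 to 34.5 CPM over the 9 libraries, with a median of 3.86 CPM. The neurofilament genes Nefh and Nefm were at 1.03 (SE 0.41) and 0.89 (SE 0.38) for SBES against untrained, where 13 of the 20 markers were positive, 7 negative and 0 called, with a median of 0.08. The median over the 20 markers was -0.65 for untrained against sham, with 16 negative, beside a median of -0.39 over the 10 genes and -0.01 over all genes. In the same comparison the median was -0.55 over 20 oligodendrocyte and myelin markers (19 negative) and -0.39 over 8 ependymal markers (8 negative). It was -0.19 over 22 pan-neuronal markers (16 negative) and 0.52 over 17 endothelium and pericyte markers (15 positive). Over 7 glutamatergic neuron markers it was 0.60 (5 positive) and over 12 inhibitory neuron markers 0.25 (7 positive). In each of these lists 0 were called. Among oligodendrocyte and myelin markers, Ugt8a, a lipid synthesis enzyme gene, fell in SBES against sham with a log2 fold change of -2.33 (SE 0.32, adjusted p = 0.0149 by edgeR) and Car2, a carbonic anhydrase gene, with -1.73 (SE 0.30, adjusted p = 0.037). The glucose transporter gene Slc2a1 of the endothelium list rose in that comparison by 1.56 (SE 0.27, adjusted p = 0.0366 by edgeR). Ugt8a was also called for injured against sham, at -1.82 (SE 0.25, adjusted p = 0.0231 by edgeR). The first Ugt8a call was lost without SBES library 3 (adjusted p by edgeR 0.0869) or sham library 3 (0.122), and the second without any 1 of the SBES or sham libraries (0.0526 to 0.181). Car2 missed the threshold without any 1 of the 6 libraries (0.0578 to 0.176), and Slc2a1 without SBES library 3 or any 1 of the sham libraries (0.0692 to 0.23). With limma on log2(FPKM + 1) the adjusted p was 0.188 for Slc2a1 and 0.0500 for Car2. For Ugt8a it was 0.0306 for SBES against sham and 0.0986 for injured against sham. Fitting only the groups compared, adjusted p by edgeR was 0.0713 for Slc2a1 and 0.0718 for Car2. For Ugt8a it was then 0.00704 and 0.153 in the same 2 comparisons.

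Cholinergic interneurons of the V0c class also express Chat and Slc18a3. Among markers of that class, Lhx1 ran from 2.73 to 8.06 CPM over the 9 libraries and Evx1 from 0.198 to 2.07, and Dbx1 had 0 counts in all 9. For injured against sham the log2 fold change was -0.21 (SE 0.40) for Lhx1 and -0.37 (SE 0.63) for Evx1, and neither passed edgeR's test in any comparison.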

How the data were processed

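The authors deposited 1 table with whole-number counts and FPKM per gene and library. Per the labels, reads were aligned with Hisat2 2.0.1 and counted with HTSeq 0.6.1, and the authors tested genes with DESeq2. Per the submitters' processing notes the genome was mm10, while strand setting and annotation release were not given in the sources used here. Per the file headers the other columns are FPKM, which were used between genes.

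Deposited counts were tested with edgeR 4.0.16 in R 4.3.3. filterByExpr kept 15893 genes, TMM set the library scaling, and 1 quasi-likelihood fit held all 9 libraries, with group as its only term. The injured value is the mean of the SBES and untrained coefficients. A gene was called at an adjusted p (Benjamini-Hochberg) below 0.05. The genes kept held 99.8% to 99.9% of the counts of a library. Levels in CPM divide the counts by the total over the genes kept times the TMM factor of the library. That factor was 0.727 in sham library 1, 0.760 in SBES library 1 and 1.02 to 1.16 in the others, so CPM and FPKM differ most in those 2 libraries. Ratios, order and correlations used exact permutation tests (Python 3.11.15, scipy 1.17.1). On log2 CPM an offset of 0.5 was added. Exonic lengths and coordinates of the 10 genes in the table equal those of GENCODE M21. The edgeR script was tested on simulated data.

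Named genes are the 10 genes, the called members of marker lists, the genes of smallest p in the cholinergic and motor neuron lists, and the 3 closest genes by correlation. Some genes of the lists are not reported here. The genes and lists were chosen with earlier results of these data known. Alternatives were RLE size factors, DESeq2 1.42.0, other filters, limma 3.58.1 on log2(FPKM + 1) and log2(FPKM + 0.1), only the groups compared, a replicate block, no replicate 1 libraries and leaving out each library. Equal replicate numbers of different groups did not mark shared animals or days in the labels.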

Additional observations from a re-analysis of the deposited data

How the results depend on the processing

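All 10 genes missed the adjusted threshold in the 4 comparisons under every alternative. Of 630 alternative fold changes of the 10 genes 44 changed sign, 14 of them outside leave-one-out, and the smallest adjusted p was 0.13. Genes called in all, for SBES against untrained, untrained against sham, SBES against sham and injured against sham in that order, were 0, 0, 55 and 15 in the fit reported. They were 29, 14, 283 and 159 with DESeq2, 186, 134, 517 and 345 with no filter on low counts, and 13, 47, 581 and 335 without the replicate 1 libraries. With limma on log2(FPKM + 0.1) they were 0, 1, 30 and 6, and with limma on log2(FPKM + 1) they were 0, 0, 21 and 0. Fitting only the groups compared gave 3 for injured against sham. The labels tie replicate numbers to no animal or day. Deviations of same-numbered libraries correlated at over 0.1 in 7 of 9 pairs (-0.17 to 0.42 in all), and a library was closest to its own number in 10 of 18 checks. Library 1 of each group was closest to library 1 of both other groups, with r of 0.25, 0.31 and 0.42. Libraries 2 and 3 were often closest to another number. As the labels name no pairing, the fit reported has no replicate term, and it leaves the shared deviation of the replicate 1 libraries in its spread. With the replicate block 0, 4, 132 and 51 genes were called. Leaving out 1 library gave 0 to 1 genes for SBES against untrained, 0 to 86 for SBES against sham (0 without sham library 3, 4 without SBES library 3, 6 without sham library 2, 29 without sham library 1 and 86 without SBES library 1) and 0 to 11 for injured against sham (0 without sham library 2 or 3). The cause was not tested. With limma on FPKM (offsets 1 and 0.1) the median of all genes was -0.11 and -0.19 for SBES against untrained and 0.10 and 0.18 for untrained against sham, beside 0.02 and -0.01 in the fit reported.

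Signs turned as follows. Without the replicate 1 libraries Prph was at -0.26 for SBES against untrained, Slc18a3 at -0.22 and Isl1 at -0.13 for SBES against sham, and Ache at -0.0235 for injured against sham. With limma at offsets 1 and 0.1, Lhx4 was at -0.000511 and -0.00555 for SBES against untrained, Chat at 0.11 and 0.14 and Ache at 0.0212 and 0.0231 for untrained against sham, and Slc18a3 at 0.0314 and 0.0378 for injured against sham. With the replicate block Isl2 was at 0.0106 for SBES against untrained and Prph at 0.00944 for SBES against sham. The log2 ratio of Isl1 to Chat was 0.014 for SBES against untrained with a prior of 2 counts. Relative to mature motor neuron markers in place of pan-neuronal ones, 1 of 40 exact tests had a p under 0.05. Only the 10 tests of injured against sham could go that low. The 20 mature motor neuron markers themselves had a median log2 fold change of -0.54 for injured against sham, with 15 negative. Leaving out 1 library, ranges for SBES against untrained were -0.34 to 0.0223 for Chat, -0.67 to 0.57 for Slc5a7, -0.14 to 0.44 for Prph, -0.28 to 0.15 for Isl1, -0.47 to 0.36 for Isl2 and -0.0359 to 0.33 for Lhx4. For untrained against sham they were -0.27 to 0.13 for Chat, -1.01 to 0.0172 for Slc5a7, -0.0338 to 0.40 for Isl1 and -0.57 to 0.0346 for Mnx1. For SBES against sham they were -0.15 to 0.45 for Slc18a3, -0.50 to 0.0927 for Prph, -0.0243 to 0.32 for Isl1 and -0.56 to 0.18 for Lhx3, and for injured against sham -0.44 to 0.15 for Slc18a3 and -0.0636 to 0.16 for Ache. Log2 ratios also crossed zero. For SBES against untrained the ranges were -0.52 to 0.71 for Slc5a7 to Chat, -0.30 to 0.43 for Isl1 to Chat, -0.30 to 0.53 for Isl2 to Isl1 and -0.42 to 0.22 for Mnx1 to Isl1. For untrained against sham they were -0.25 to 0.12 for Ache to Chat and -0.0662 to 0.58 for Lhx4 to Lhx3. For SBES against sham they were -1.02 to 0.20 for Slc5a7 to Chat, -0.15 to 0.28 for Prph to Chat and -0.30 to 0.13 for Lhx4 to Lhx3. For injured against sham they were -0.15 to 0.25 for Slc18a3 to Chat, -0.31 to 0.0534 for Prph to Chat and -0.0897 to 0.20 for Lhx4 to Lhx3. The ratio of Mnx1 to Isl1 kept its sign there, from -0.85 to -0.45, with an exact p of 0.0357 in 1 of these. The 5 transcription factor genes rest on 14 to 145 counts per library.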
